A study of Homo sapiens with 24 samples.

Results

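Expression of 8 genes was followed across all 8 groups of a study of androgen and ETS-factor knockdown in human prostate cancer cells. The genes are EML6, S100P, SLPI, REG4, CA4, FAM3D, GPX2 and GDA, out of 19775 genes with a usable probe set on the array, and 14 of its 54675 probe sets are annotated to them. They form a group because their intensity was lower after knockdown of ERG in VCaP cells, both with and without androgen, so that difference is described here and not tested. The questions asked of them were whether the androgen DHT (dihydrotestosterone) moved them too, and whether knockdown of ETV1 did so in a second cell line.

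VCaP and LNCaP are androgen-responsive human prostate cancer lines, and in each a rearrangement drives an ETS transcription factor, ERG in VCaP and ETV1 in LNCaP. The VCaP groups were siControl with EtOH, siERG with EtOH, siControl with DHT and siERG with DHT, and the LNCaP groups were shControl with EtOH, shETV1 with EtOH, shControl with DHT and shETV1 with DHT. After 24 h of RNA interference all cells, controls included, spent 2 days without hormone and then 16 h with EtOH, the vehicle, or with 10 nM DHT. Each group held 3 biological replicates (A, B and C), 1 Affymetrix HG-U133 Plus 2.0 array each, and that number limits the precision of every value. How many interfering RNAs were used and their sequences are details that the sources used here do not give.

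ETS factors bind DNA at sites with a GGAA core and are oncogenes in prostate cancer when an androgen-driven promoter is fused to them, while DHT acts through the androgen receptor, which both raises and lowers transcription. Several of the 8 genes are known from mucosal epithelia. SLPI is a secreted inhibitor of neutrophil proteases, REG4 a secreted lectin-like protein of the gut, and FAM3D a secreted cytokine-like protein of the gut. CA4 is a carbonic anhydrase held on the outer face of the plasma membrane, and S100P a small calcium-binding protein that works inside cells and can be released. GPX2 is a glutathione peroxidase of the gut lining, GDA converts guanine to xanthine, and EML6 belongs to a family of microtubule-associated proteins. The working label of secretory genes therefore suits SLPI, REG4 and FAM3D, and only in part the other members.

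Array intensities are in linear units, and changes are differences of log2(intensity + 16), given ± standard error with 3 arrays per group, so they understate the change of dim genes. Array medians were 42.73 to 44.78 in LNCaP and 47.57 to 53.25 in VCaP, and levels were compared only inside a line. The targeted ERG was 44.1% lower after siERG with EtOH and 53.9% lower with DHT, and ETV1 35.1% and 35.5% lower after shETV1. All 11 luminal prostate markers lay above the array median on every array, save KLK2 in the shETV1 EtOH group, and 0 of 3 basal markers did so in any group. From 0 to 1 of 4 leukocyte, 0 to 2 of 5 endothelial and 1 to 2 of 6 fibroblast markers lay above it on all 3 arrays of a group. In bulk RNA, fewer cells that express a gene and less RNA per cell cannot be told apart.

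In VCaP all 8 genes were lower after siERG in both conditions, by 51.8% to 76.2% with EtOH and by 58.0% to 74.1% with DHT. In each condition the siControl and siERG arrays of all 8 did not overlap. That follows in large part from choosing them by this contrast, and the share of all genes without overlap was not counted. Over all 12840 genes tested in VCaP, 5.87% were called lower after siERG with EtOH and 5.18% with DHT, and since this contrast chose the members nothing is read from their count. They ranked from 1 to 24 from the bottom of the 12840 changes with EtOH and from 1 to 20 with DHT.

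**Figure D1:**
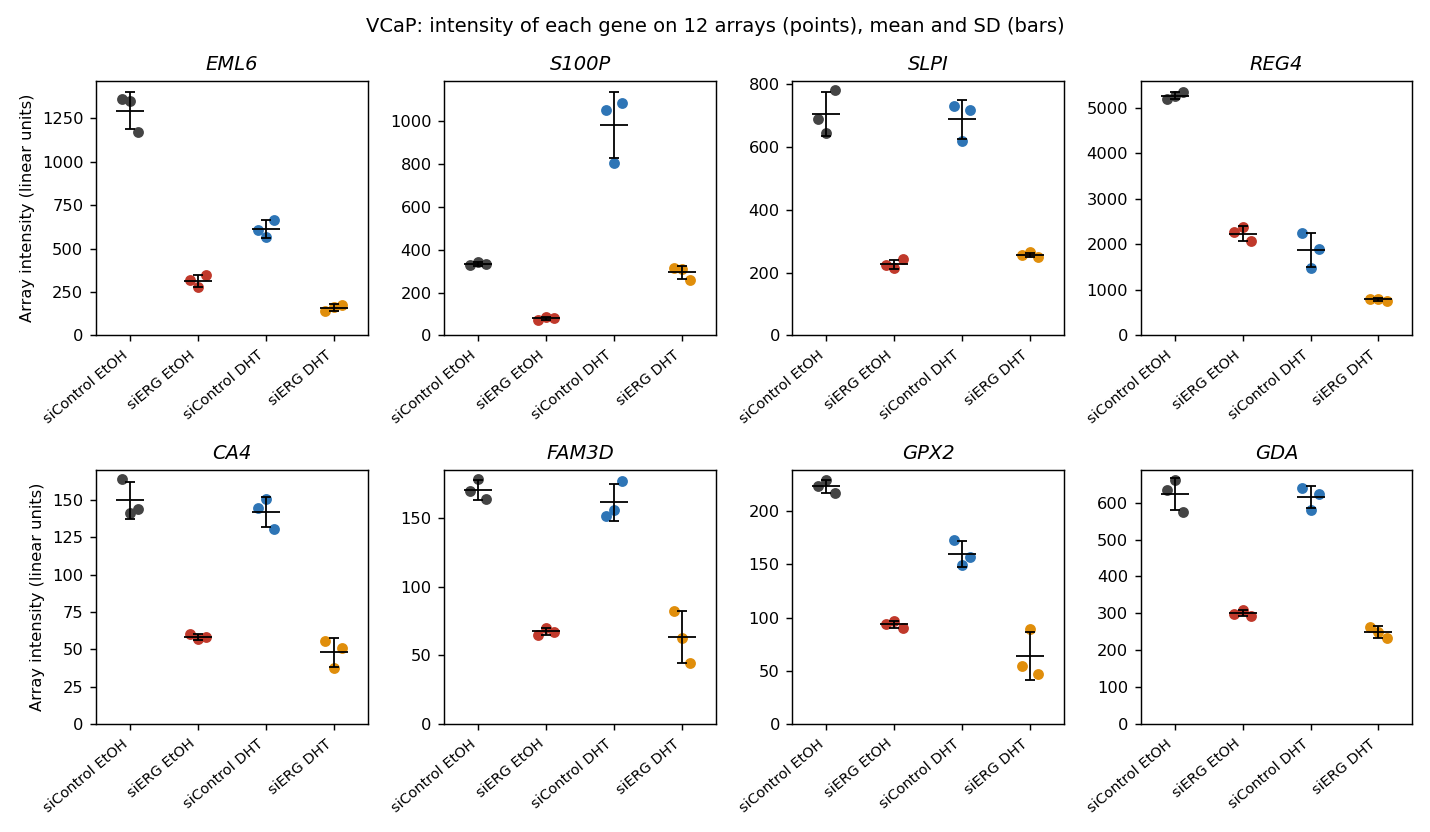
Intensity (linear units, each axis from 0) of the 8 genes on the 12 VCaP arrays, with 1 panel per gene and 4 groups of 3 arrays, where points are arrays and bars the mean and SD. Every siERG array lies below every siControl array of the same treatment, S100P is higher with DHT in both kinds of cell, and EML6, REG4 and GPX2 are lower in both.

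EML6, which with S100P was furthest down, read 1362, 1352 and 1171 on the siControl EtOH arrays A, B and C and 317, 280 and 348 on the siERG EtOH arrays. With DHT it read 607, 565 and 667 in siControl and 138, 162 and 177 in siERG. The 4 groups stood in 4 separate steps, with siControl EtOH highest, then siControl DHT, siERG EtOH and siERG DHT. The siERG difference was -1.99 ± 0.11 with EtOH and -1.85 ± 0.11 with DHT. DHT alone lowered EML6 as well: it fell by 1.06 ± 0.11 in siControl (adjusted p = 1.46e-05) and by 0.92 ± 0.11 in siERG cells (adjusted p = 4.05e-05).

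REG4 had the highest readings of the 8, with 5187, 5252 and 5353 in siControl EtOH and 2259, 2374 and 2061 in siERG EtOH. With DHT it read 2244, 1489 and 1895 in siControl and 806, 804 and 752 in siERG. Array A of siControl DHT, at 2244, lay inside the range of the siERG EtOH arrays, while B and C lay below all of them. The readings after both treatments were the lowest. On the other REG4 probe sets siControl DHT lay below siERG EtOH without overlap. There 1554436_a_at read 1182 to 1778 in siControl DHT and 1867 to 2093 in siERG EtOH. For 238984_at the readings were 280 to 393 and 733 to 778 in the same order. The siERG difference was -1.23 ± 0.12 with EtOH and -1.22 ± 0.12 with DHT. REG4 fell with DHT by 1.50 ± 0.12 in siControl (adjusted p = 2.61e-06) and by 1.48 ± 0.12 in siERG cells (adjusted p = 2.82e-06).

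S100P went the other way with DHT. It read 327, 345 and 334 in siControl EtOH and 73.7, 85.0 and 80.5 in siERG EtOH, then 1052, 804 and 1086 in siControl DHT and 314, 309 and 261 in siERG DHT. The groups did not overlap, and the siERG DHT arrays lay just below the siControl EtOH arrays, far above those of siERG EtOH. S100P rose with DHT 2.92-fold in siControl (1.49 ± 0.11, adjusted p = 1.43e-06) and 3.69-fold in siERG cells (1.69 ± 0.11, adjusted p = 5.71e-07). The siERG difference was -1.88 ± 0.11 with EtOH and -1.68 ± 0.11 with DHT.

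The starts of S100P and REG4 are shown because the genes moved in opposite directions with DHT in the same cells. Both windows come from the RefSeq promoter table (GRCh38.p14), which held 5 of the 8 genes (S100P, REG4, FAM3D, GPX2 and GDA), and run from 250 bases before the gene's start to 50 after it, 5′ to 3′ on the gene's strand. S100P lies at chr4:6693628-6693927 on the plus strand and REG4 at chr1:119811411-119811710 on the minus strand. Capitals mark GGAA, the ETS core, on either strand (GGAA or TTCC), and TATAAA, the TATA box.
S100P: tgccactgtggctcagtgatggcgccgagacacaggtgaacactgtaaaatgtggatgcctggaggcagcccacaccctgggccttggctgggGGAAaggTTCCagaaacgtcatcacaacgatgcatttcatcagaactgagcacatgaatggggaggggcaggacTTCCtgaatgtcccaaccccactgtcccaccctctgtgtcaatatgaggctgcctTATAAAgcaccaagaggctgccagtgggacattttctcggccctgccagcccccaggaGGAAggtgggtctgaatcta
REG4: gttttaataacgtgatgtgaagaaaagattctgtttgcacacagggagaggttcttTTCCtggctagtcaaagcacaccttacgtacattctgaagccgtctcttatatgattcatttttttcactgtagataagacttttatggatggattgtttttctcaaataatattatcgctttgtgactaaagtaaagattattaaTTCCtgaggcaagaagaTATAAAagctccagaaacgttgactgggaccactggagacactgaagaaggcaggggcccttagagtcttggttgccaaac
Both windows hold a TATAAA close to the start, beginning at -28 in S100P and at -31 in REG4. At any place in the window and on either strand, TATAAA is in 11.53% of the 35116 promoters of the table. The core GGAA is in 95.45% of all promoters and in 5 of 5 of these, so it sets none apart. The longer AGGAAG, which contains GGAA, occurs in S100P, FAM3D, GPX2 and GDA and not in REG4, that is in 4 of 5 windows against 33.65% of all promoters. CGGAAG, which also contains GGAA, is in 0 of 5 against 19.46%, and AGAACA, the core of 1 arm of an androgen receptor site, is in 0 of 5 against 14.79%. These are matches of letters, and whether a factor binds there was not measured.

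FAM3D is shown as well, because of the 5 windows it holds the most AGGAAG, 4 on the 2 strands together, marked in part by the capitals GGAA and TTCC. It lies at chr3:58666725-58667024 on the minus strand.
FAM3D: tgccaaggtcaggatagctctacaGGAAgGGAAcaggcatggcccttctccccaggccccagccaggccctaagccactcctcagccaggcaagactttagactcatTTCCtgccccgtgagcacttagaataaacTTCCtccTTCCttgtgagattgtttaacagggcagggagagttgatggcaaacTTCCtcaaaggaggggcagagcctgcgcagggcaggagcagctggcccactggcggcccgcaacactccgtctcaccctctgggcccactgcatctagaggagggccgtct
No TATAAA is in this window, and the gene's readings with DHT are among those given next.

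In the other 5 genes the DHT difference was smaller, between -0.50 and 0.17 in either kind of cell. SLPI read 691, 645 and 782 in siControl EtOH, 224, 214 and 243 in siERG EtOH, 730, 618 and 716 in siControl DHT and 255, 264 and 250 in siERG DHT. Its siControl arrays overlapped between EtOH and DHT, while those of siERG were all higher with DHT. The DHT difference of SLPI was -0.03 ± 0.08 in siControl, with a 95% interval from -0.22 to 0.15, and 0.17 ± 0.08 in siERG cells (adjusted p = 0.125). Its siERG difference was -1.57 ± 0.08 with EtOH and -1.37 ± 0.08 with DHT.

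GDA was read at 576 to 662 in siControl EtOH, 293 to 310 in siERG EtOH, 581 to 640 in siControl DHT and 233 to 264 in siERG DHT. Its readings overlapped between EtOH and DHT in siControl and not in siERG cells. In siControl the DHT difference was -0.02 ± 0.06, with an interval from -0.16 to 0.12, and in siERG cells GDA fell by 0.26 ± 0.06 (adjusted p = 0.0071). That call was lost when all 24 arrays were fitted together (adjusted p = 0.164).

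GPX2 read 217 to 229 in siControl EtOH, 90.1 to 96.9 in siERG EtOH, 150 to 173 in siControl DHT and 47.0 to 89.1 in siERG DHT. It was lower on every DHT array than on any EtOH array of the same cells, with 1 siERG DHT array, B, close to the EtOH arrays. GPX2 fell with DHT by 0.45 ± 0.15 in siControl (adjusted p = 0.0302) and by 0.50 ± 0.15 in siERG cells (adjusted p = 0.0182). Without 1 array, 5 of 12 fits lost the first call, with an adjusted p up to 0.0877, and 3 of 12 the second, up to 0.0651. The GAPDH 3' to 5' ratio, a measure of RNA integrity, was 1.07 to 1.11 in siERG EtOH and at most 1.04 in siERG DHT, with no overlap. In siControl it went the other way, with 1.04 to 1.06 in EtOH and 1.07 to 1.08 in DHT, also without overlap. The siERG and siControl arrays did not overlap in this ratio in either condition. With this ratio as a covariate neither GPX2 (adjusted p = 0.138 in siControl and 0.123 in siERG) nor GDA (0.136 in siERG) passed. The ACTB 3' to 5' ratio was higher, at 2.95 to 3.55 in siControl EtOH and 2.63 to 3.53 in siERG EtOH. With DHT it was 3.46 to 3.56 in siControl and 2.49 to 3.06 in siERG, without overlap.

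CA4 read 141 to 164 in siControl EtOH, 56.8 to 60.6 in siERG EtOH, 131 to 151 in siControl DHT and 37.3 to 55.6 in siERG DHT. FAM3D read 163 to 178, 65.0 to 69.8, 152 to 177 and 44.6 to 82.6 in the same order. Both genes overlapped between EtOH and DHT in siControl, where the differences were -0.07 ± 0.10 for CA4 (interval -0.29 to 0.16) and -0.07 ± 0.14 for FAM3D (interval -0.38 to 0.23). In siERG cells CA4 differed by -0.23 ± 0.10 (adjusted p = 0.0873) and FAM3D by -0.10 ± 0.14 (adjusted p = 0.591). The siERG differences of CA4, FAM3D, GPX2 and GDA lay between -1.16 and -1.01 with EtOH and between -1.31 and -1.18 with DHT.

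In sum over the members, DHT moved 4 of 8 in siControl, 1 up and 3 down, where 45% of all genes tested were called in either direction, and 5 of 8 in siERG cells, 1 up and 4 down, against 45.3%. The shares were near those of all genes. The median DHT change of the 8 was -0.07 in siControl and -0.24 in siERG cells, against -0.03 and -0.02 over all genes. FKBP5, a reference gene induced by androgen, rose by 1.90 ± 0.07 in siControl VCaP cells. The knockdown and DHT changes in VCaP are formed from the same 4 groups, so they are not independent of each other. This holds in siERG cells too, where the members were chosen for low readings with EtOH and with DHT.

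**Figure D2:**
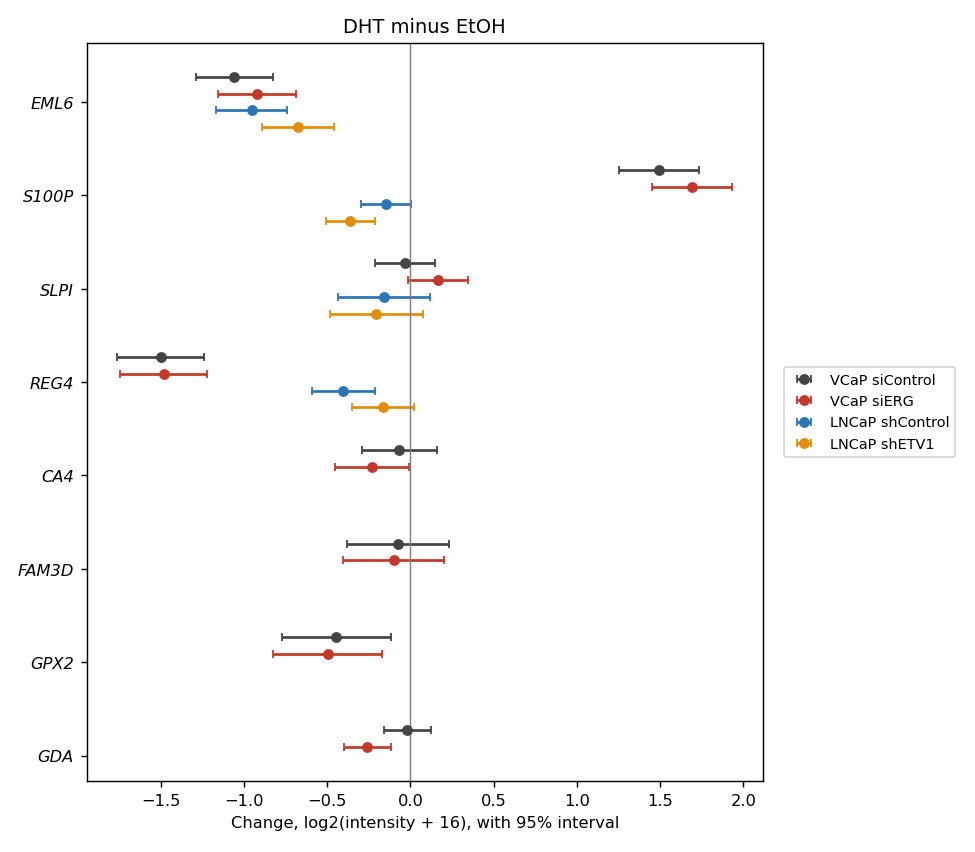
DHT minus EtOH on the log2(intensity + 16) scale (points, with 95% intervals) for each gene in siControl and siERG VCaP cells and in shControl and shETV1 LNCaP cells. S100P lies above 0 in both VCaP groups and below it in both LNCaP groups, EML6 lies below 0 in all 4, and CA4, FAM3D, GPX2 and GDA are shown only for VCaP.

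How far the siERG difference itself varied with DHT is the difference of the contrasts that chose the members and is given as a description. It lay between -0.24 ± 0.09 for GDA and 0.20 ± 0.15 for S100P, with 0.02 ± 0.17 for REG4, 0.14 ± 0.15 for EML6 and 0.20 ± 0.12 for SLPI.

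Several genes have more than 1 probe set, a group of short probes against 1 stretch of a transcript. The 3 probe sets of REG4 all fell with DHT but by unequal amounts, with changes of -1.50, -1.68 and -2.41 in siControl and -1.48, -1.70 and -3.36 in siERG cells. The largest fall was that of 238984_at, which read 1619 to 1984 in siControl EtOH, 733 to 778 in siERG EtOH, 280 to 393 in siControl DHT and 53.5 to 65.8 in siERG DHT. Its siERG difference was -1.22 ± 0.12 with EtOH and -2.17 ± 0.12 with DHT, a gap that the other 2 REG4 probe sets did not show (-1.23 and -1.25 with EtOH, -1.22 and -1.28 with DHT). EML6 had the reverse gap at its dimmer probe set 242785_at, with -1.56 ± 0.16 with EtOH and -0.75 ± 0.16 with DHT. There the DHT change in siERG cells was -0.28 ± 0.16 (adjusted p = 0.202 over probe sets).

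CA4 has a second probe set, 206208_at, which fell with DHT in siControl by 0.33 ± 0.11 (adjusted p = 0.0442) and in siERG cells by 0.44 ± 0.11 (adjusted p = 0.0119), where its representative did not pass. The second probe set of GPX2 read 8.48 to 21.7 in VCaP, below the median of every array. That of GDA, 1569555_at, read 38.1 to 63.4 and did not follow its partner: its siERG difference was 0.19 ± 0.12 with EtOH and -0.27 ± 0.12 with DHT. It rose with DHT in siControl by 0.36 ± 0.12 (adjusted p = 0.0327). Statements on GDA and GPX2 thus rest on 1 probe set each. The same holds for S100P, SLPI and FAM3D, which had no other probe set to compare.

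**Figure D3:**
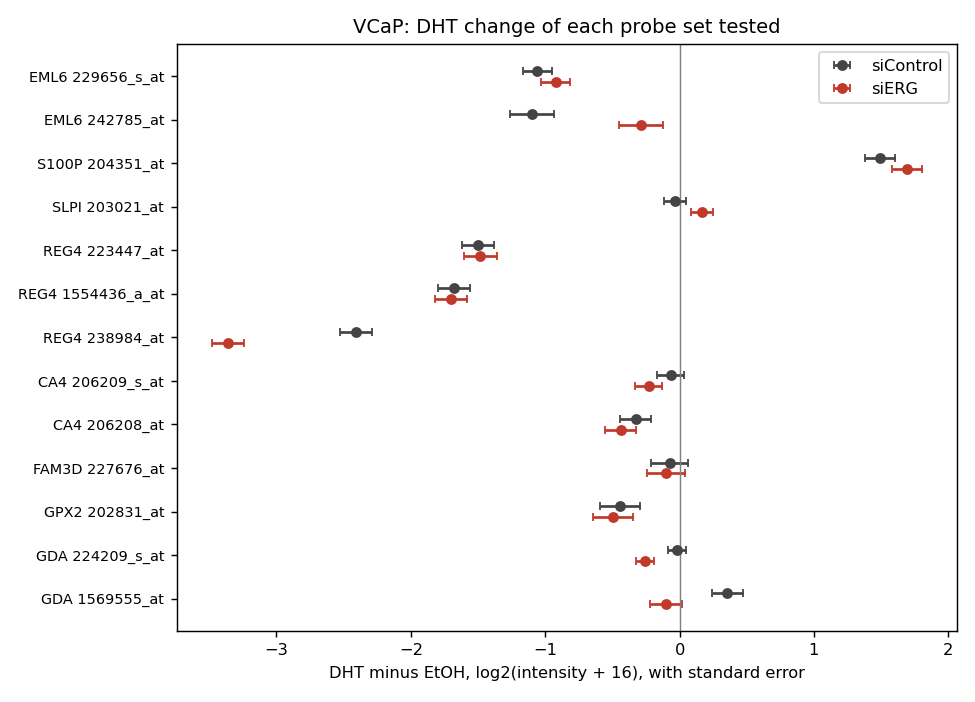
DHT minus EtOH in VCaP (points with standard error, log2(intensity + 16)) for the 13 probe sets of the 8 genes that were tested, in siControl and siERG cells. The 3 REG4 probe sets all lie below 0 with 238984_at lowest, and 1569555_at of GDA lies at 0.36 in siControl, where its partner lies at -0.02.

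In LNCaP 4 of the 8 genes passed the intensity filter with their representative, the brightest probe set: EML6, S100P, SLPI and REG4. EML6 lay above the array median on 10 of the 12 arrays and the other 3 on all 12. CA4, FAM3D, GPX2 and GDA lay at or below the array median nearly everywhere. CA4 read 11.2 to 29.2, FAM3D 6.01 to 20.1, GPX2 9.10 to 32.3 and GDA 20.9 to 46.4, the last above the median on 1 of 12 arrays. They did not pass the intensity filter, which does not show that the genes are silent. With no filter 1 call was made among them, for GPX2, which was 0.51 higher with DHT in shETV1 cells (adjusted p = 0.0332), at readings of 9.10 to 14.5 with EtOH and 17.9 to 32.3 with DHT, all below the array median. The other probe set of GDA, 1569555_at, lay above the median on 4 of 12 arrays and was tested, with -0.14 ± 0.21 after shETV1 with EtOH (adjusted p = 0.810 over probe sets), and it passed in 0 of the LNCaP comparisons.

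With EtOH, 3 of the 4 changed after shETV1, where 4.2% of all 12823 genes tested were called in either direction, and their directions differed. S100P read 316, 357 and 291 in shControl and 432, 436 and 436 in shETV1 EtOH, so every knockdown array was higher. S100P rose 1.35-fold (0.42 ± 0.07, adjusted p = 0.00583), while in VCaP its reading was lower after siERG. EML6 read 115, 116 and 114 in shControl and 71.4, 84.5 and 78.0 in shETV1, and fell by 0.48 ± 0.10 (adjusted p = 0.0201). REG4 read 99.9, 101 and 104 in shControl and 63.6, 81.6 and 83.0 in shETV1, and fell by 0.36 ± 0.09 (adjusted p = 0.0417). Groups did not overlap for either gene. SLPI overlapped, with 107, 96.8 and 96.0 against 82.9, 95.6 and 97.4, a difference of -0.10 ± 0.13 (adjusted p = 0.718, interval -0.38 to 0.17).

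The falls of EML6 and REG4 depend on single arrays and settings, since leaving out 1 array ended the call of REG4 in 10 of 12 fits and of EML6 in 5 of 12. Without shControl EtOH replicate A, B or C, or without shETV1 EtOH replicate A, the count of 3 became 1, with S100P called in all 12 such fits (adjusted p up to 0.0298). The other REG4 probe sets read 7.22 to 31.8 in LNCaP, below the median on all 12 arrays, so its values there rest on 1 dim probe set. The second EML6 probe set, 242785_at, read 9.48 to 22.0 in LNCaP, also below the median on all 12. All EML6 values in LNCaP thus rest on 1 probe set too. The GAPDH ratio was 1.08 to 1.13 in shControl EtOH and 1.05 to 1.09 in shETV1 EtOH, and with it as a covariate 0 of 4 were called (S100P 0.36, adjusted p = 0.139). The ACTB ratio was 2.78 to 3.47 in shControl EtOH and 2.87 to 3.03 in shETV1 EtOH. The summed intensity of the 11 luminal markers was 21624 to 23096 in shControl EtOH and 17845 to 18610 in shETV1 EtOH. The part of RNA integrity or luminal level in these changes was not tested further.

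**Figure D4:**
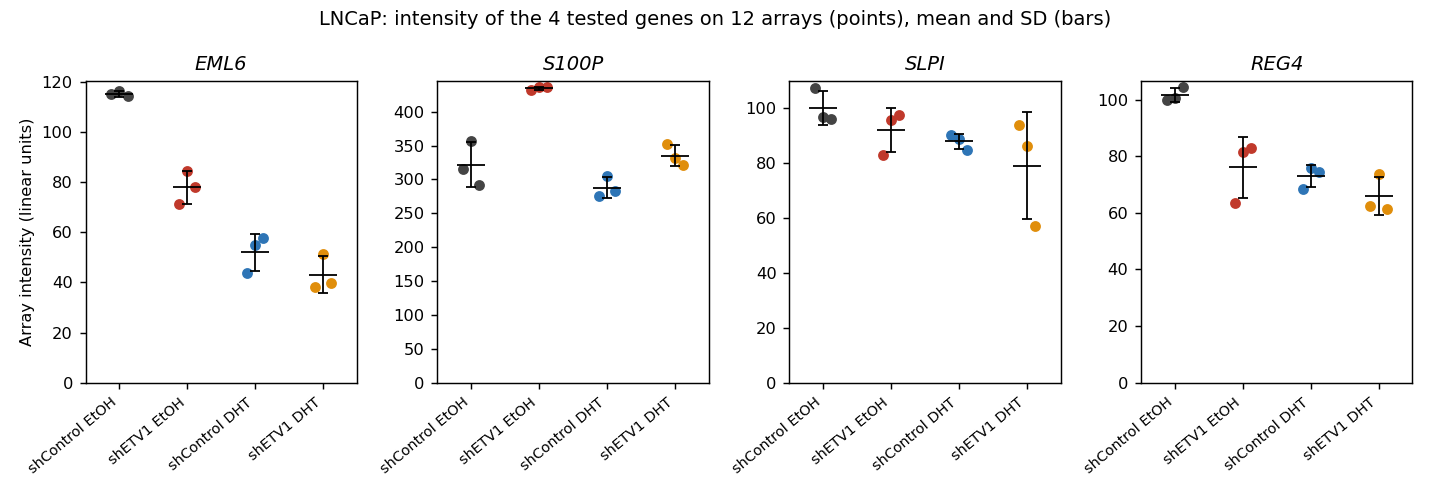
Intensity (linear units, each axis from 0) of the 4 genes tested in LNCaP on 12 arrays, with 4 groups of 3 arrays, where points are arrays and bars the mean and SD. EML6 and REG4 are highest in shControl EtOH, and S100P is highest in shETV1 EtOH, at 432 to 436.

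With DHT, shETV1 changed 0 of the 4, where 5.19% of all genes were called, and 1 of the 4, S100P, had an unadjusted p below 0.05 (limma). S100P read 276, 305 and 282 in shControl DHT and 352, 332 and 322 in shETV1 DHT, which did not overlap, a difference of 0.21 ± 0.07 (adjusted p = 0.114). EML6 differed by -0.20 ± 0.10 (adjusted p = 0.269), REG4 by -0.12 ± 0.09 and SLPI by -0.15 ± 0.13. Whether the effect of shETV1 differed between EtOH and DHT was tested as the interaction, which equals the difference in DHT response. It called 0 of 4 members and 0.101% of all genes, with S100P at -0.21 ± 0.10 (unadjusted p below 0.05, adjusted p = 0.664), EML6 at 0.28 ± 0.14 and REG4 at 0.24 ± 0.12.

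**Figure D5:**
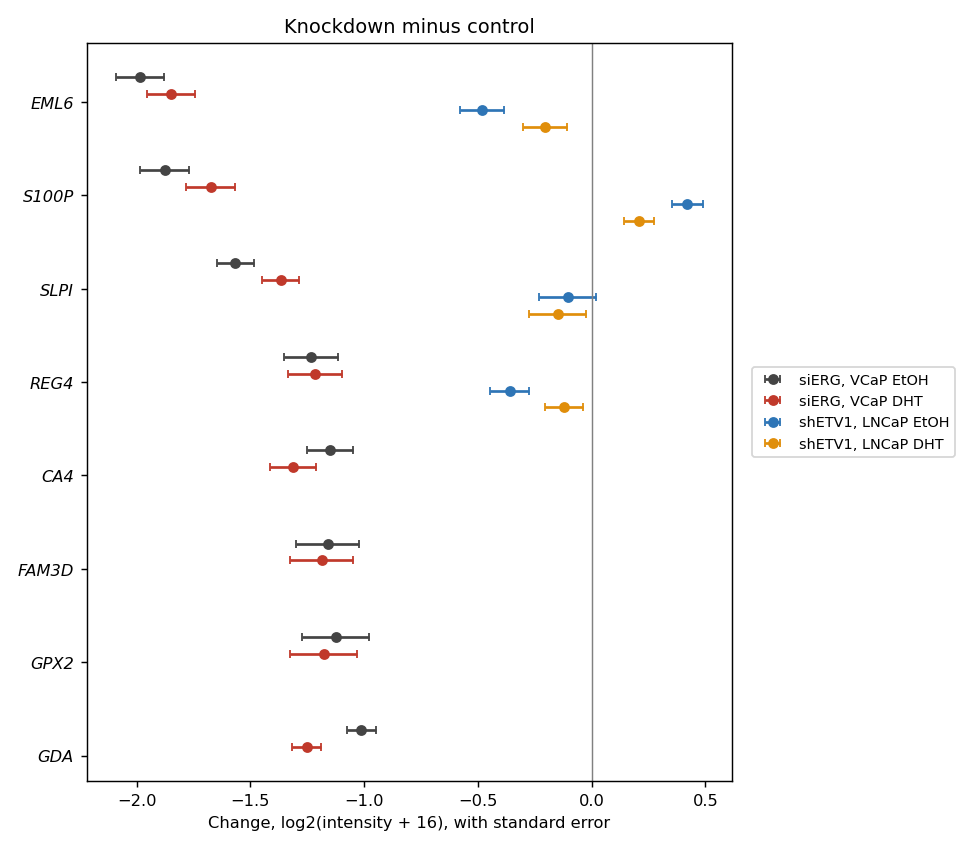
Knockdown minus control on the log2(intensity + 16) scale (points, with standard errors) for siERG in VCaP and shETV1 in LNCaP, each with EtOH and DHT. All siERG values lie between -1.99 and -1.01 because the members were chosen by them, and of the shETV1 values S100P lies above 0, at 0.42 and 0.21.

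DHT in LNCaP lowered EML6, as in VCaP. It read 43.6, 54.8 and 57.5 in shControl DHT and 38.0, 51.4 and 39.6 in shETV1 DHT, all below the EtOH arrays of the same cells, and fell by 0.95 ± 0.10 in shControl (adjusted p = 1.54e-05) and by 0.68 ± 0.10 in shETV1 cells (adjusted p = 2.30e-04). REG4 read 68.4, 76.0 and 74.6 in shControl DHT and 62.5, 73.7 and 61.5 in shETV1 DHT. It fell by 0.40 ± 0.09 in shControl (adjusted p = 0.00289), and in shETV1 cells, where groups overlapped, it differed by -0.16 ± 0.09 (adjusted p = 0.163). S100P differed by -0.15 ± 0.07 in shControl (adjusted p = 0.108) and fell by 0.36 ± 0.07 in shETV1 cells (adjusted p = 0.00151). SLPI read 84.7 to 90.2 in shControl DHT and 57.1 to 93.8 in shETV1 DHT, differences of -0.16 ± 0.13 and -0.20 ± 0.13 that did not pass. So 2 of 4 members fell in shControl, where 40.8% of all genes were called, and 2 of 4 in shETV1 cells, where 37.9% were.

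The DHT response differed between lines for S100P and REG4, 2 of the 4 genes tested, where 31.9% of the 12305 genes tested in both lines differed. The response in LNCaP shControl minus that in VCaP siControl was -1.64 ± 0.13 for S100P (adjusted p = 9.06e-09), a gene that rose in VCaP and did not pass in LNCaP. It was 1.10 ± 0.15 for REG4 (adjusted p = 1.22e-05), whose fall was smaller in LNCaP. For EML6 it was 0.10 ± 0.15, with an interval from -0.21 to 0.41, and for SLPI -0.12 ± 0.16, from -0.45 to 0.20. The EML6 value depends on the settings: it was called with its probe sets averaged (0.45, adjusted p = 0.00376) and with a pseudocount of 64 (0.38), and was -0.07 with a pseudocount of 1 (adjusted p = 0.817). FKBP5 rose by 3.52 ± 0.07 in LNCaP shControl cells. Differences of brightness between the lines can weigh on such comparisons, since REG4 was read at 99.9 to 104 in LNCaP and 5187 to 5353 in VCaP control cells with EtOH.

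Across the 12 VCaP arrays the 28 pairs of members correlated with Pearson's r from -0.03 (REG4 with S100P) to 0.98 (CA4 with GDA), with a median of 0.87. Across the 12 LNCaP arrays the 6 pairs of the tested members ranged from -0.08 (REG4 with S100P) to 0.91 (EML6 with REG4). The arrays share treatments, and the values only describe them. The genes whose pattern was most like the mean of the 8 standardised members over the 12 VCaP arrays were KAT2B (r = 0.994), PLA1A (0.993), CALML4 (0.991), VLDLR (0.985) and ANXA11 (0.984). In LNCaP, over the 4 tested members, they were SGTB (0.971), ENTPD5 (0.969), IQCH-AS1 (0.961), FAM201A (0.960) and ZNF345 (0.959), none of them also among the VCaP 5. PLA1A, a phospholipase that acts on phosphatidylserine, changed after shETV1 in LNCaP by -1.01 ± 0.13 with EtOH and -0.68 ± 0.13 with DHT (adjusted p = 0.00118 and 0.0130). It rose with DHT in shControl cells by 1.26 ± 0.13 (adjusted p = 1.44e-05). KAT2B, CALML4 and ANXA11 were not called after shETV1 in either condition, and VLDLR only with DHT (-0.37 ± 0.08, adjusted p = 0.0278). With DHT in shControl cells VLDLR and KAT2B rose as well, while CALML4 and ANXA11 were not called.

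Relatives of the members were followed in 8 lists with 84 tested genes in VCaP, where 5 rose and 10 fell after siERG with EtOH (17.9%, against 11.2% of all genes called in either direction) and 3 rose and 8 fell with DHT (13.1% against 8.97%). After shETV1 in LNCaP 8 of 72 were called with EtOH and 7 with DHT (11.1% and 9.72%, against 4.2% and 5.19%). Of 7 tested S100 genes, 1 fell after siERG with EtOH and 0 rose, S100A6 (-0.57 ± 0.09, adjusted p = 0.00240). With DHT in siControl 1 rose and 4 fell, among them S100A6 (-0.60 ± 0.09, adjusted p = 2.26e-04), where 45% of all genes were called in either direction. The medians of the S100 list were -0.10 and -0.26, against 0.01 and -0.03 over all genes. Of 5 tested carbonic anhydrases, 1 fell after siERG, the membrane enzyme CA12, with -0.73 ± 0.07 for EtOH and -0.89 ± 0.07 for DHT (adjusted p = 1.91e-04 and 4.14e-05). In LNCaP 1 of 4 rose after shETV1, CA13, with 0.66 ± 0.08 for EtOH and 0.88 ± 0.08 for DHT (adjusted p = 7.53e-04 and 1.15e-04).

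Of 13 tested protease inhibitors other than SLPI, 1 rose and 2 fell after siERG with EtOH. SERPINE2, an inhibitor of thrombin and plasminogen activators, rose by 0.51 ± 0.07 (adjusted p = 0.00136), and CSTA, an inhibitor of cysteine proteases, fell by 0.35 ± 0.05 (adjusted p = 0.00128). In LNCaP SERPINE2 went down with shETV1, where it fell by 0.51 ± 0.08 with EtOH (adjusted p = 0.00488), and 0 of the other 9 tested inhibitors were called. Of the 3 tested genes of the REG and FAM3 families 0 passed after siERG. FAM3B and FAM3C fell with DHT in siControl, FAM3B by 0.44 ± 0.05 (adjusted p = 6.82e-05), where 45% of all genes were called in either direction.

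Among 22 tested glutathione and antioxidant genes 2 rose and 0 fell after siERG with EtOH. Over all genes 11.2% were called in either direction. The list's median change was -0.05, against 0.01 over all genes. GPX8, a peroxidase of the endoplasmic reticulum, was 1 of the 2 that rose (0.27 ± 0.07, adjusted p = 0.0347). In LNCaP cells with EtOH it fell by 0.52 ± 0.05 after shETV1 (adjusted p = 1.25e-04). Of 15 tested genes of purine salvage and breakdown, GDA's pathway, 1 rose and 3 fell after siERG with EtOH, and 0 of 13 were called after shETV1 in either condition. Of the 5 other EML genes, 1 fell after siERG in each condition, EML3 with EtOH and EML1 with DHT, and EML1 rose with DHT where EML6 fell, by 0.49 ± 0.05 in siControl VCaP (adjusted p = 1.10e-05) and by 0.87 ± 0.06 in shControl LNCaP cells (adjusted p = 1.03e-06).

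Of 14 tested genes typical of mucosal and gut epithelium, 1 rose and 2 fell after siERG with EtOH, and 0 rose and 2 fell with DHT. The trefoil peptide TFF1, which protects mucosa, changed by -0.74 ± 0.12 in EtOH and -1.23 ± 0.12 in DHT (adjusted p = 0.00305 and 1.22e-04), and the tetraspanin TSPAN8 by -0.67 ± 0.09 in both (adjusted p = 9.23e-04 and 8.07e-04). The list's median was -0.07 and -0.12, against 0.01 and 0.02 over all genes. In LNCaP 0 of 12 fell after shETV1, and 1 rose with EtOH and 2 with DHT, the surface peptidase DPP4 (0.51 ± 0.06 and 0.63 ± 0.06, adjusted p = 0.00118 and 2.84e-04) and, with DHT, TSPAN8 (0.53 ± 0.11, adjusted p = 0.0195). The summed intensity of the 29 genes of this list was 9615 to 10125 in siControl EtOH and 8170 to 8817 in siERG EtOH. From 10 to 11 of them lay above the median on all arrays of a VCaP group. AGR2, AGR3, CEACAM5, CEACAM6, DPP4, LGALS4, MUC1, TFF1, TFF3 and TSPAN8 did so in every VCaP group, and MUC2 and CDX2 in none.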

How the data were processed

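Total RNA of 3 biological replicates in each of 8 groups was hybridised to 24 Affymetrix HG-U133 Plus 2.0 arrays, per the labels. The values are intensity per probe set as deposited by the authors in a table of the whole series, with 54675 probe sets and 0 missing values. For the step from scans to intensities and for the scaling, the method is not stated in the labels. The labels name the LNCaP control both shControl and siControl.

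The members and gene lists were chosen with earlier results of these data known. The named genes are all members and their probe sets, the knockdown targets, FKBP5 and KLK3 as references, up to 2 risen and 2 fallen genes per list and comparison by adjusted p, and the 5 genes most like the members in each line.

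GEO's platform table named 1 gene for 41097 probe sets, and 1801 with several genes were left out. Intensities became log2(intensity + 16), each gene took its brightest probe set over 24 arrays, and genes above the array median on at least 3 of 12 arrays of a line were tested (12840 in VCaP, 12823 in LNCaP), which a gene bright in 1 group alone can pass. limma 3.58.1 (R 4.3.3; lmFit and eBayes) was fitted with 4 groups per line, and with 24 arrays for the difference between lines. Two-sided p-values were Benjamini-Hochberg adjusted over all genes tested and called below 0.05. The scripts were tested on simulated data.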

Additional observations from a re-analysis of the deposited data

Results flagged for a closer look

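The response to DHT differed between control cells of the lines for S100P and REG4, by a test of the difference itself in a fit of 24 arrays with 3 per group. For S100P the response in LNCaP shControl minus that in VCaP siControl was -1.64 log2 units, and it lay between -1.78 and -1.56 in 24 fits without 1 array each and between -1.70 and -1.51 under the other settings. For REG4 it was 1.10, with ranges of 0.94 to 1.24 and 1.03 to 1.20. The lines also differ in the kind of RNA interference their controls received and perhaps in array processing, and these cannot be told apart from the line.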

How the results depend on the processing

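Counts of members called kept within 1.5 times of the main count under most settings, and the exceptions follow. In LNCaP shControl, DHT called 1 of the members when all probe sets of a gene were averaged and 1 without _x_at and _s_at probe sets, and the latter also gave 1 in shETV1 cells. After shETV1 with EtOH the count was 1 with no intensity filter and 0 with the GAPDH ratio as covariate, which gave 3 for DHT in siERG cells. The GDA difference turned positive without _x_at and _s_at probe sets, to 0.19 for siERG with EtOH and 0.36 for DHT in siControl (adjusted p = 0.0278), since only its dim probe set 1569555_at is then left. With 1 array left out, the counts were 3 to 4 (DHT, siControl), 4 to 5 (DHT, siERG), 1 to 3 (shETV1 with EtOH), 2 to 3 (DHT, shControl), 2 to 3 (DHT, shETV1), 2 to 2 (difference between lines) and 0 to 0 for both shETV1 with DHT and the interaction. Correlations of same-lettered arrays' deviations were above 0.1 in 1 of 18 LNCaP pairs and 2 of 18 VCaP pairs. The main fits therefore did not pair arrays by letter, though the labels do not say whether the letters mark matched cultures. With the replicate block the counts were 4 and 5 for DHT in VCaP, 3 and 0 for shETV1, and 2 and 2 for DHT in LNCaP, as without it. Another scaling (quantile or median) moved the median of all genes by at most 0.07. Limits include 3 arrays per group and low brightness: 4 members did not pass the filter in LNCaP, where 1 of them, GPX2, was called with no filter (DHT in shETV1 cells, 0.51, adjusted p = 0.0332), REG4 is dim there, and the calls of GPX2 and of EML6 and REG4 after shETV1 lie close to the threshold.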
